A study of Mus musculus with 12 samples.

Results

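Xcr1 Clec9a dendritic cells were the 58 cells, of 12630 kept over 3 mouse single-cell libraries, in which Xcr1 and Clec9a together had 2 or more unique molecular identifier counts (UMIs, which count captured transcripts). A barcode was kept as a cell when it had at least 500 genes and at most 20% of its UMIs from mitochondrial genes. Cells with 3 or more UMIs of the macrophage genes C1qa, C1qb and C1qc were left out, as were cells with 5 or more UMIs of Ccr7, Fscn1 and Ccl22, genes of mature dendritic cells. The cells were thus selected on their UMIs of these genes. The tracheal allograft library held 14 of the cells, the native trachea library 25 and the spleen library 19. The study concerned mononuclear phagocytes and the airway scarring of obliterative bronchiolitis after transplantation. Its labels give 4 samples for each of the 3 sources, tracheal allograft, native trachea and spleen, and 1 matrix per source in which cells are not tied to samples. A source was therefore 1 pooled library with no replicate error, and no test was made. The labels call the tracheal cells mesenchymal progenitors and the spleen cells splenocytes, and the strain, sex, age, time after transplantation and isolation of the cells were not given in the sources used here.

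Conventional type 1 dendritic cells take up material from dead cells and present it to CD8 T cells on MHC class I, a process called cross-presentation. XCR1 is the receptor for XCL1, a chemokine made by natural killer cells and activated CD8 T cells, and CLEC9A binds actin filaments exposed on dying cells. The lineage needs the transcription factors IRF8 and BATF3 and the growth factor receptor FLT3. In airways and other barrier tissues many of these cells carry the integrin alpha E chain (Itgae, the CD103 antigen), and in spleen many carry CD8 alpha.

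The cells made up 0.359% of the allograft cells (95% interval 0.197% to 0.602%, exact Clopper-Pearson), 0.602% of the native cells (0.390% to 0.887%) and 0.415% of the spleen cells (0.250% to 0.647%). How cells were isolated can set these shares, and so can the rule's limits on the C1q genes and the Ccr7 group. Before these limits, 39 allograft, 35 native and 20 spleen cells had 2 or more UMIs of Xcr1 and Clec9a. The order of the shares thus depends on the limits. Every interval given here covers counting error only. The median cell had 17272.5 UMIs and 3418 genes in the allograft, 12416 UMIs and 2567 genes in the native trachea, and 8698 UMIs and 2590 genes in spleen. All kept cells had medians of 4994, 6557 and 4433 UMIs in these libraries, and 4 to 7 barcodes were shared by each pair of libraries, none of them among the 58. The lowest of the 58 cells, in spleen, had 1115 UMIs, and the highest, also in spleen, had 32110. Since 2 libraries held fewer than 20 of the cells, values by library are set side by side, and no fold or count of genes was taken between libraries.

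The rule used Xcr1 and Clec9a, so their levels describe the selection. Both genes were detected in all 14 allograft cells, in 15 of 25 native cells and in 8 of 19 spleen cells. Over the 58 cells, 10 had Xcr1 alone and 11 had Clec9a alone. The sum of the 2 genes had a median of 7.5 UMIs in allograft cells, 2 in native cells and 3 in spleen cells, with a highest value of 22, 13 and 34. It was exactly 2, the lowest value the rule allows, in 2 allograft, 14 native and 4 spleen cells. Most native cells thus stood at the edge of the rule, while most allograft cells did not. Neither gene had a UMI in any of the 227 Cd209a dendritic cells set beside them, because those were required to have none. Lymphocytes, which were required to have fewer than 2 UMIs of these genes, showed Xcr1 in 0.151% and Clec9a in 0.0755% of 3971 cells. The low lymphocyte shares are thus also in part set by selection.

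**Figure D1:**
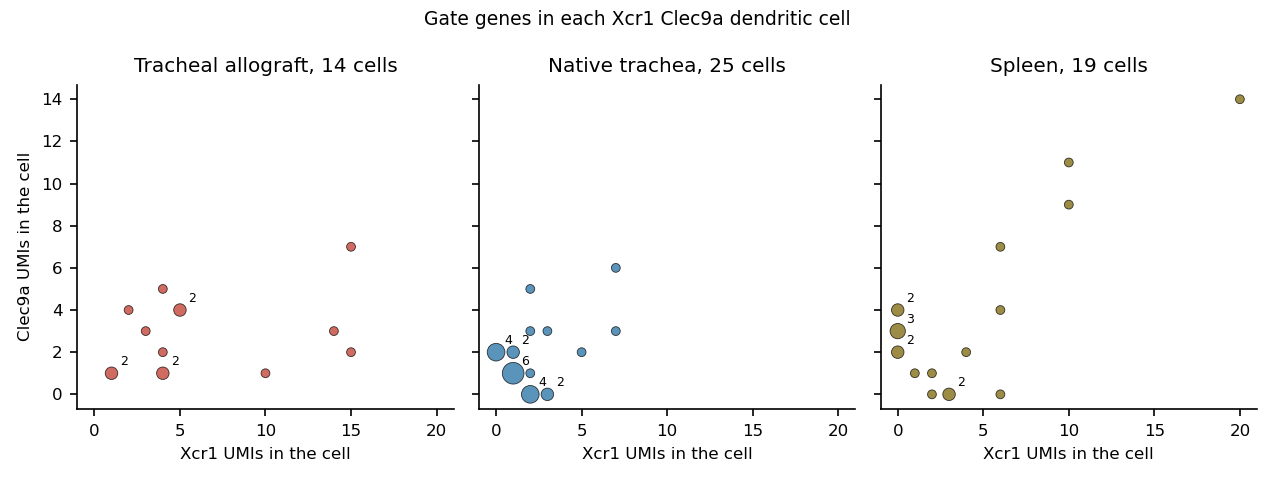
Clec9a UMIs (vertical axis) against Xcr1 UMIs (horizontal axis) in each of the 58 cells, in 1 panel each for tracheal allograft, native trachea and spleen; larger marks with a number stand for several cells at the same values. All 14 allograft cells lie off both axes, while native cells crowd at sums of 2, which 14 of 25 had.

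The label was checked on genes that the rule did not use. Flt3 was detected in 42 of the 58 cells (72.4%), against 51 of 227 Cd209a cells (22.5%) and 2.14% of lymphocytes. In spleen alone Flt3 was detected in 15 of 19 Xcr1 Clec9a cells (78.9%) and 6 of 9 Cd209a cells (66.7%). It thus did not set the 2 kinds apart there. Itgae was detected in 26 of the 58 cells (44.8%), against 1 of 227 Cd209a cells (0.441%) and 3.15% of lymphocytes. Median depth was 12425.5 UMIs in the 58 cells, 9564 in the Cd209a cells and 4568 in the lymphocytes. Of 18 further genes of type 1 dendritic cells, Flt3 and Itgae included, a cell had a median of 13 in the allograft (range 10 to 16), 11 in the native trachea (6 to 14) and 10 in spleen (2 to 18). In the allograft cells Cd209a, Sirpa and Irf4, genes of type 2 dendritic cells, and the transcription factor Zeb2 had 0 UMIs. Of the 10 genes listed for type 2 cells, 5 had UMIs in allograft cells, 17 in all. These reached 2 or more UMIs in 5 of the 14 cells. A count of 0 among 14 cells allows a share of cells with a UMI of up to 21.4% (3 counts), which says nothing of cells that express a gene below detection.

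A few cells went against the label. In spleen, 3 cells had 14 to 19 UMIs of Siglech, a defining gene of plasmacytoid dendritic cells, together with 26 to 35 UMIs of Irf8, and no UMI of Xcr1, Naaa or Itgae. They had 2 or 3 of the 18 further genes. Another marker, Cd209a, had 2 or more UMIs in 2 native cells (43 and 14 UMIs) and in 3 spleen cells (14, 11 and 2 UMIs). Neutrophil genes reached 414, 133 and 65 UMIs in 3 spleen cells, and T cell genes reached 32, 28, 11 and 10 UMIs in 4 native cells. In all, 4 of 14 allograft, 12 of 25 native and 11 of 19 spleen cells held 2 or more UMIs of a lymphoid, neutrophil, fibroblast, epithelial, endothelial or erythroid list. The 5 neutrophil genes summed to 27.7 CPM in allograft cells, 43.4 CPM in native cells and 3159.7 CPM in spleen cells, where single cells ranged from 0 to 58296 CPM. No B cell gene had a UMI in allograft cells. In native cells B cell genes had 19 UMIs, 18 of them in 1 cell, and in spleen cells 103, 84 of them in 1 cell. That spleen cell was the one with 414 neutrophil UMIs, and it also had 39 UMIs of Irf8 and 33 of Wdfy4. The part of cells with genes of other types in the results below was not tested. The counts that lead the comparison were also taken without the cells that had 2 or more Siglech or Cd209a UMIs.

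Summed over libraries, cells next to the rule's limits differed in level. The 20 cells with exactly 2 UMIs of Xcr1 and Clec9a had 343 CPM (the gene's UMIs per 1000000 summed UMIs) of Wdfy4 and 447 CPM of Naaa, and the 47 cells with 1 UMI had 79.1 CPM and 198 CPM. The 38 cells with 3 or more had 584 CPM of Wdfy4 and 954 CPM of Naaa. Itgae had 62.7 CPM in the cells with 2 UMIs, 9.89 CPM in those with 1 and 151 CPM in those with 3 or more. These sums mix libraries, as 14 of the 20 cells with 2 UMIs and 11 of the 38 with 3 or more were native. In the allograft, the 2 cells with 2 UMIs had 695 CPM of Wdfy4, 1129 CPM of Naaa and 289 CPM of Itgae. The 12 allograft cells with 3 or more had 605 CPM, 824.5 CPM and 270 CPM of these genes. In native and in spleen cells each of these genes was higher in cells with 3 or more. The limit on C1q genes took out 22 cells and the limit on the Ccr7 group 14, so that 58 of 94 cells with 2 or more UMIs stayed. By library 14 of 39 allograft, 25 of 35 native and 19 of 20 spleen cells stayed. Of the 22, the 6 with 3 or 4 C1q UMIs had Flt3 in 6 of 6 cells, 553 CPM of Wdfy4, 1489 CPM of Irf8 and 26.7 CPM of Csf1r. The 16 with more than 4 C1q UMIs had 7085 CPM of Lyz2 and 528 CPM of Csf1r, with Lyz2 and Csf1r both genes of macrophages and monocytes. Itgae was detected in 11 of the 14 cells left out by the Ccr7 group.

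Irf8 and Id2, transcription regulators of the lineage, were detected in 52 and 53 of the 58 cells and Batf3 in 32. Irf8 had 1143 CPM in allograft cells (95% Poisson interval 1015 to 1283, 14 of 14 cells), 586 CPM in native cells (506 to 676, 21 of 25) and 2129.8 CPM in spleen cells (1932 to 2342, 17 of 19). The spleen value includes the 3 cells with Siglech, which alone had 4113 CPM. Batf3 had 35.6 CPM in allograft cells (16.3 to 67.6, 5 cells), 86.9 CPM in native cells (57.7 to 126, 14 cells) and 290.0 CPM in spleen cells (220.2 to 375, 13 cells). Single spleen cells held up to 10 of the 58 Batf3 UMIs there. The intervals do not cover such spread between cells, so no order of the sources was read from them. Id2, an inhibitor of helix-loop-helix factors that dendritic cells need, had 1523 CPM, 1486 CPM and 955 CPM in allograft, native and spleen cells. Bcl11a, a factor shared with plasmacytoid and B cells, had 1 UMI in 1 cell in each tracheal library and 50 UMIs in 14 of 19 spleen cells. Nfil3, which acts early in the lineage, had 131 CPM in allograft cells and 130.3 CPM in native cells, and 0 UMIs in spleen cells, where a count of 0 among 19 cells allows a share with a UMI of up to 15.8%.

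Genes of surface and growth factor receptors varied in how many UMIs a cell held. Flt3 had 206 CPM in allograft cells (154 to 269.7, 13 of 14), 68.3 CPM in native cells (42.8 to 103, 14 of 25) and 160.0 CPM in spleen cells (109 to 226, 15 of 19). Kit, the receptor for stem cell factor, had 154 CPM, 49.6 CPM and 65.0 CPM in allograft, native and spleen cells. Csf2rb, a signalling chain of the GM-CSF receptor, had 763 CPM in allograft cells, 627 CPM in native cells and 90.0 CPM in spleen cells. Cd24a, a glycoprotein of the cell surface, had 613 CPM, 391 CPM and 185 CPM in the same order. Btla, an inhibitory receptor, had 67.2 CPM in allograft cells, 55.8 CPM in native cells and 249.98 CPM in spleen cells. Kit was thus detected in 12 of 14 allograft cells, 10 of 25 native cells and 10 of 19 spleen cells.

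Itgae and Cd8a, which mark tissue and lymphoid forms of the lineage, were spread unevenly over the cells. Itgae had 273 CPM in allograft cells (212 to 345, 13 of 14), 52.7 CPM in native cells (30.7 to 84.5, 8 of 25) and 10 UMIs in 5 of 19 spleen cells, an interval of 24.0 to 91.9 CPM. With every cell thinned to 1500 UMIs, which left out 1 spleen cell, Itgae was detected in 6 of 14 allograft cells (42.9%), 0 of 25 native cells and 2 of 18 spleen cells (11.1%). That is 8 of 57 cells (14.04%, 6.26% to 25.8%), against 0 of 227 Cd209a cells and 1.19% of lymphocytes. By library the Cd209a cells showed Itgae in 0 of 28 allograft, 0 of 190 native and 0 of 9 spleen cells. In the native library neither kind of cell thus had an Itgae UMI after thinning. Lymphocytes of the allograft alone showed it in 2.80% after thinning. A count of 0 among 25 thinned native cells allows a share with a UMI of up to 12.0%, and 8 of these cells had an Itgae UMI as sequenced. Thinned to 3000 UMIs instead, 8 of 14 allograft, 2 of 25 native and 1 of 18 spleen cells had an Itgae UMI, so no order was read between native and spleen cells. Cd8a had 47.5 CPM in 5 allograft cells, 6.21 CPM in 2 native cells and 210.0 CPM in 7 spleen cells, where 1 cell gave 27 of 42 UMIs. After thinning it was detected in 3 of 57 cells (5.26%, 1.10% to 14.6%), all of them from spleen, against 0 of 227 Cd209a cells. Only 9 of the 227 came from spleen, where 0 of 9 had Cd8a after thinning (0% to 33.6%) and 1 of 9 as sequenced. The spleen cells thus do not settle whether the 2 kinds differ in Cd8a. Spleen lymphocytes, some of which are CD8 T cells, showed it in 5.44% after thinning, and 3 of 18 spleen cells is 16.7% (3.58% to 41.4%). At 3000 UMIs Cd8a was detected in 6 of 57 cells (10.5%), 5 of them from spleen and 1 from the allograft. Cd207 (langerin), an endocytic lectin, had 202 CPM in 7 allograft cells, 74.5 CPM in 5 native cells and 10 UMIs in 6 spleen cells.

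**Figure D2:**
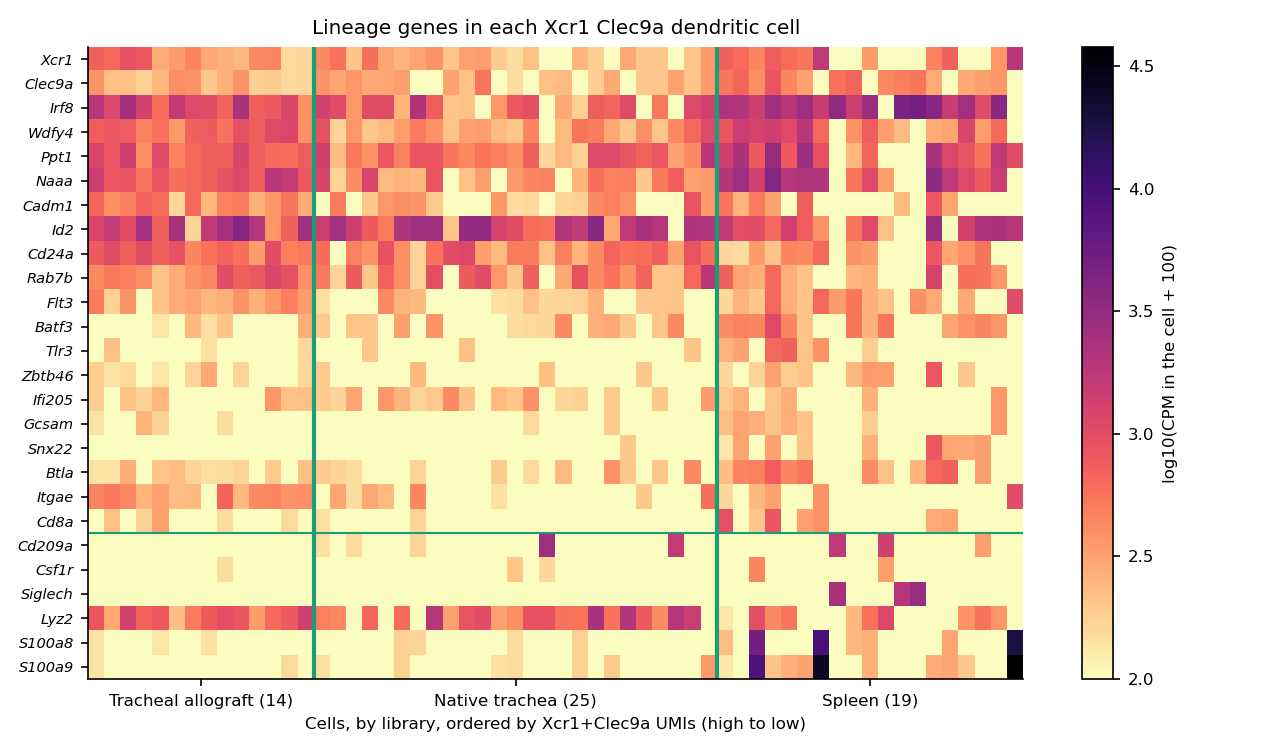
Level of genes of type 1 dendritic cells (upper rows) and of other cell types (lower rows) in each of the 58 cells (columns), by library; colour is log10 of the cell's CPM plus 100. Irf8 and Wdfy4 fill most columns, Itgae fills 13 of 14 allograft columns, and the 3 columns with Siglech lie in spleen.

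Wdfy4, Naaa and Ppt1, genes of antigen handling and the lysosome, were detected in 51 to 54 of the 58 cells. Wdfy4, a vesicle protein needed for cross-presentation, had 617 CPM in allograft cells (14 of 14), 264 CPM in native cells (24 of 25) and 769.9 CPM in spleen cells (16 of 19). Naaa, a lysosomal hydrolase of fatty acid amides, had 866 CPM, 326 CPM and 1469.9 CPM in allograft, native and spleen cells. Ppt1, a lysosomal enzyme that removes fatty acids from proteins, had 747 CPM in allograft cells, 524 CPM in native cells and 1049.9 CPM in spleen cells, in 54 of 58 cells overall. Cadm1, an adhesion molecule of the lineage, had 364 CPM in allograft cells (14 of 14), 152 CPM in native cells (16 of 25) and 215 CPM in spleen cells (8 of 19). Tlr3, the receptor for double-stranded RNA, was sparse, with 5, 3 and 24 UMIs in allograft, native and spleen cells. Apol7c, an apolipoprotein L gene, had 0 UMIs in the tracheal libraries and 79 UMIs in 6 spleen cells, 38 of them in 1 cell.

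**Figure D3:**
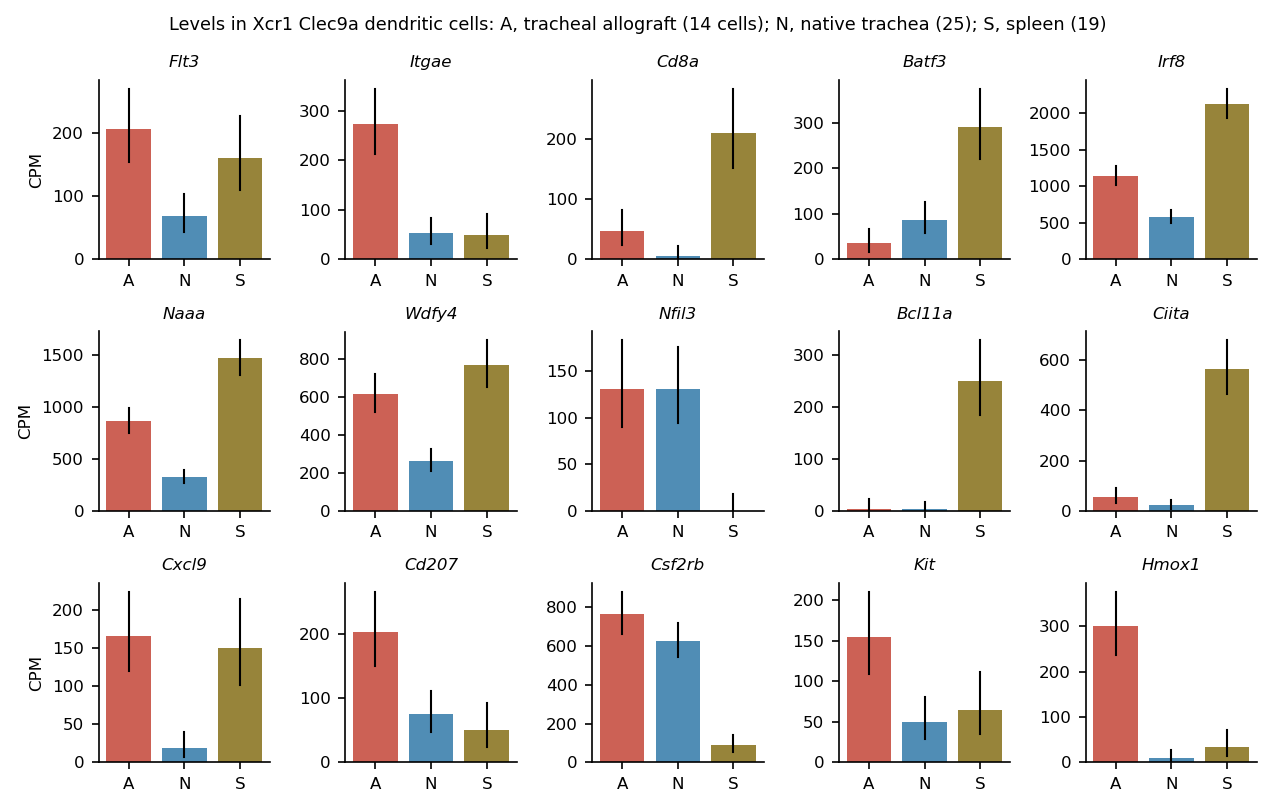
CPM of 15 genes in Xcr1 Clec9a cells of the tracheal allograft (A, 14 cells), native trachea (N, 25 cells) and spleen (S, 19 cells); bars are summed levels and lines exact 95% Poisson intervals. Itgae stood at 273 CPM in the allograft and Nfil3 at 0 UMIs in spleen.

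The nearest other dendritic cells were the 227 Cd209a cells, which had 2 or more Cd209a UMIs, no UMI of Xcr1 or Clec9a, and met the same limits on C1q and Ccr7 group genes. Of them, 28 came from the allograft, 190 from the native trachea and 9 from spleen. All 58 cells were summed against the 227, and 25 native cells against 190 native cells, since only the native library held at least 20 cells of each kind. The pooled sums differ in make-up, as 43.1% of the Xcr1 Clec9a cells and 83.7% of the Cd209a cells were native. Folds are ratios of CPM with 0.5 UMI added to each sum, with exact conditional binomial 95% intervals. A gene counted as measured with 20 UMIs, 50 CPM and 5 cells in the higher set, and as higher or lower at 2-fold. Of 2971 genes measured in the pooled sums, 311 (10.5%) were higher and 404 (13.6%) lower, and log2 ratios had a median of 0.09. Within the native library 197 of 2549 (7.73%) were higher and 374 (14.7%) lower, and the median was -0.05. With the members that had 2 or more Siglech or Cd209a UMIs left out, 321 and 432 genes were higher and lower in the pooled sums, and 194 and 428 in the native sums.

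The split depended on scaling, on depth and on the minimum count. Median-of-ratios scaling shifted the median log2 ratio by 0.22 in the pooled sums and by 0.14 in the native sums, and gave 229 higher and 515 lower genes in the pooled sums. Totals without mitochondrial and ribosomal genes gave 499 higher and 409 lower. Thinned cells gave 48 higher and 432 lower in the pooled sums, and 15 higher and 389 lower in the native sums. A minimum of 50 UMIs gave 67 higher and 374 lower in the native sums. The minimum applied to the higher set, and native sums held 322295 UMIs in Xcr1 Clec9a cells and 1944037 in Cd209a cells. A gene higher in the Xcr1 Clec9a cells thus needed more CPM to reach a minimum of UMIs than a lower gene did. The part of this in the thinned and 50 UMI counts was not tested. Ribosomal protein genes held 22.8% of native UMIs in the Xcr1 Clec9a cells and 17.3% in the native Cd209a cells.

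Most genes of type 1 dendritic cells stood higher than in Cd209a cells. Xcr1 and Clec9a were left out of these counts, since the rules set them in both kinds of cell. Of the other genes of the list 11 were measured in the native sums, and 8 were higher and none lower. Their log2 ratios had a median of 1.81, against -0.05 over all genes measured. In the pooled sums 13 of 14 measured genes were higher, with a median of 2.57. The shares higher over all genes measured were 7.73% in the native sums and 10.5% in the pooled sums. Irf8 had 586 CPM in native Xcr1 Clec9a cells and 26.7 CPM in native Cd209a cells, a ratio of 21.8 (16.1 to 30.4), and 13.8 (11.8 to 16.2) in the pooled sums. A single native Cd209a cell gave 28 of the 52 Irf8 UMIs there. In spleen Irf8 had 2129.8 CPM in the Xcr1 Clec9a cells and 1595 CPM in the 9 Cd209a cells. Siglech, which Irf8 accompanied in the 3 spleen cells above, had a UMI in 4 of those 9 cells, 87 UMIs in all, and in 2 of 190 native Cd209a cells. The 7 plasmacytoid genes summed to 6467 CPM in the spleen Cd209a cells and 276 CPM in the native ones, and their part in the spleen values was not tested. Ppt1 had 524 CPM against 41.7 CPM in the native cells, a ratio of 12.5 (9.60 to 16.6). Cadm1 was 7.19-fold higher (4.66 to 11.2) and Wdfy4 4.89-fold higher (3.62 to 6.56) in native cells. Batf3 reached 1.69-fold (1.06 to 2.56) and Naaa 1.71-fold (1.36 to 2.12) in the native cells, both short of 2-fold, and Id2 reached 1.44-fold. Itgae had 17 UMIs in native Xcr1 Clec9a cells, under the minimum, and 0 in 190 native Cd209a cells, at least 34.2-fold higher against a floor of 3 counts over the set.

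Genes of type 2 dendritic cells were lower as a group. Without Cd209a, which chose the cells compared, 7 genes of the list were measured in both sums and all 7 were lower. Their median log2 ratio was -2.47 in the native sums and -2.62 in the pooled sums. Over all genes measured, 14.7% were lower in the native sums and 13.6% in the pooled sums. Zeb2, a repressor that type 2 dendritic cells and plasmacytoid cells use, had 52.7 CPM in native Xcr1 Clec9a cells and 729 CPM in native Cd209a cells, 13.4-fold lower (8.61 to 23.8). Irf4, a transcription factor of type 2 cells, had 31.0 CPM against 181 CPM, 5.55-fold lower (3.13 to 12.2), and 1 cell gave 6 of its 10 UMIs. Sirpa, an inhibitory receptor, was 5.47-fold lower (2.67 to 16.3), and Mgl2, a galactose-binding lectin, 8.49-fold lower (6.60 to 11.3). Of 8 macrophage genes, 3 of 4 measured were lower in both sums, and the C1q genes, which the rules limited, were not among those measured. All 3 measured fibroblast genes were also lower in both sums, but their UMIs were concentrated in few Cd209a cells. The 4 listed fibroblast genes had 659 UMIs in native Cd209a cells, 341 of them in 1 cell. No UMI of these genes was found in 113 of the native Cd209a cells, and the source of the UMIs was not tested.

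The genes named for the highest ratios were the 12 with the highest native ratio among 185 past 2-fold in the pooled sums and in the native library, among them Itgae, Irf8 and Ppt1. In native cells 4 of the 12, Itgae, Afap1, Dbn1 and Serpinb6b, had fewer than the 20 UMIs required of a measured gene. Cldn1, a tight junction protein, had 24 UMIs in 11 of 25 native cells (74.5 CPM), 19 UMIs in 7 of 14 allograft cells and 0 UMIs in spleen cells. No Cd209a cell had a Cldn1 UMI, so it was at least 48.3-fold higher in native cells. The actin-binding genes Afap1 and Dbn1 (drebrin) had 17 and 14 UMIs in native Xcr1 Clec9a cells, and ratios of 30.2 (9.89 to 182) and 19.4 (6.63 to 88.1) there. P2ry14, a receptor for UDP sugars, had 130.3 CPM in native Xcr1 Clec9a cells and 6.17 CPM in native Cd209a cells, 20.5-fold higher (10.9 to 44.1). In spleen P2ry14 had 30 UMIs in 10 Xcr1 Clec9a cells, an interval of 101 to 214 CPM, and 278 CPM in the 9 Cd209a cells, 4 of which had Siglech. Id1, an inhibitor of helix-loop-helix factors, was 18.1-fold higher (9.72 to 37.8) and Lrrk2, a kinase of vesicle traffic, 14.96-fold higher (10.3 to 22.6) in native cells. Agpat3, a lysophospholipid acyltransferase, was 12.9-fold higher (6.21 to 29.8) and Cd207 17.4-fold higher (7.86 to 46.6), although 1 cell gave 16 of the 24 native Cd207 UMIs. All 11 native UMIs of Serpinb6b, a protease inhibitor gene with close copies, came from 1 cell, and without it the native log2 ratio was -0.87. In the pooled sums Serpinb6b was 39.1-fold higher (18.6 to 118), from 40 UMIs in 10 allograft cells and 34 in 9 spleen cells beside that 1 native cell.

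**Figure D4:**
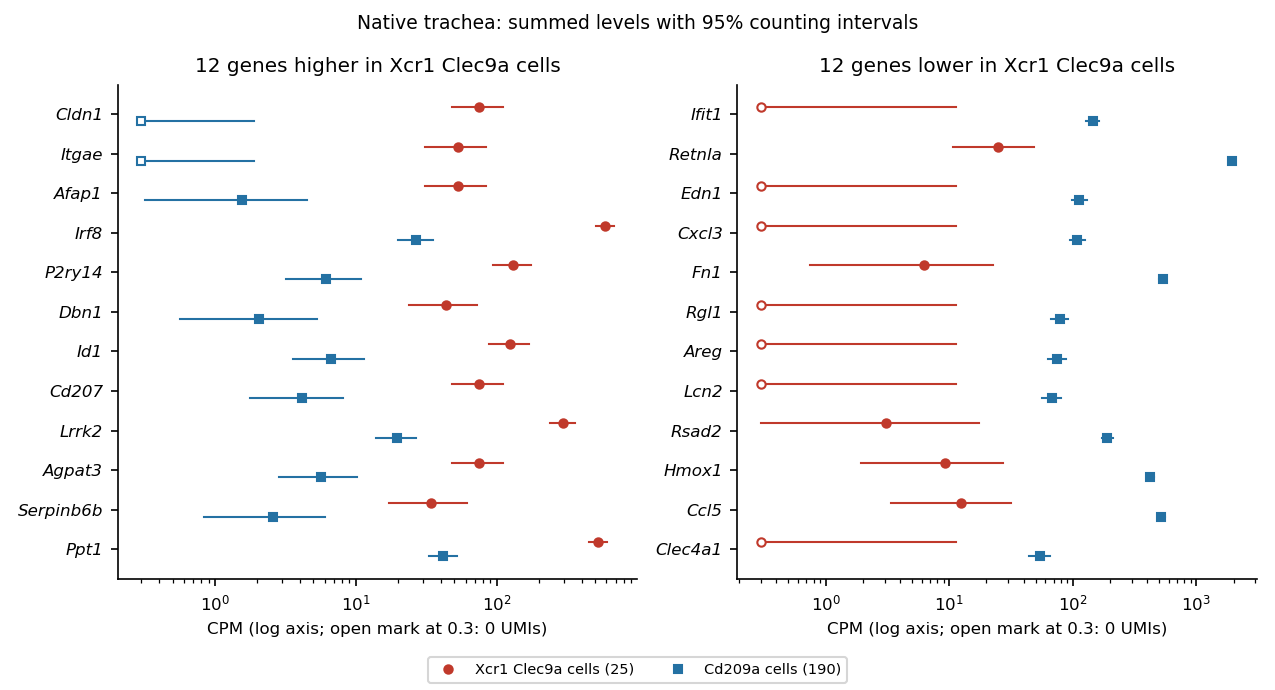
CPM (log axis) of the 12 highest and 12 lowest named genes in 25 Xcr1 Clec9a cells (circles) and 190 Cd209a cells (squares) of the native trachea, with 95% Poisson intervals; open marks at 0.3 stand for 0 UMIs. Cldn1 and Itgae have 0 UMIs in the Cd209a cells, and Retnla reaches 1928 CPM there.

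Promoter windows of these genes were searched for 3 letter patterns on both strands, since IRF8 acts at composite sites with ETS or AP-1 partners and at interferon response elements. The windows run from 250 bases before to 50 after each start, from RefSeq on GRCm38.p6, and 24 of 29 genes of the type 1 list and the higher named genes had one. The ETS-IRF pattern, GGAA followed by any 2 bases and GAAA, was found for 1 of the 24 genes (Cd8a) and 3.16% of all genes. The interferon response pattern, GAAA followed by any 2 bases and GAAA, was found for 1 of 24 (Ifi205) and 3.99% of all genes. The AP-1 pattern TGANTCA was found for 3 of 24 (Zbtb46, P2ry14 and Cd207) and 8.97% of all genes. The 2 windows below are the ones with an IRF-type match among genes of the type 1 list, with the matched letters in capitals. Ifi205, an interferon-inducible DNA-binding family gene, lies on the minus strand at chr1:174031706-174032005, and Cd8a on the plus strand at chr6:71373177-71373476. Ifi205 had 105 CPM in 17 native Xcr1 Clec9a cells and 17.5 CPM in native Cd209a cells, a ratio of 6.03 (3.64 to 10.0), and it has close copies in its family.
Ifi205: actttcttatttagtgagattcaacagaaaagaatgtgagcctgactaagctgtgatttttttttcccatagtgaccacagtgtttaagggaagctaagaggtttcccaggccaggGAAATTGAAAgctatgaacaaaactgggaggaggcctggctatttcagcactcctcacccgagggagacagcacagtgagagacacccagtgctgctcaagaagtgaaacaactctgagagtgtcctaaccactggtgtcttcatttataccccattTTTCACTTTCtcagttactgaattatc
Cd8a: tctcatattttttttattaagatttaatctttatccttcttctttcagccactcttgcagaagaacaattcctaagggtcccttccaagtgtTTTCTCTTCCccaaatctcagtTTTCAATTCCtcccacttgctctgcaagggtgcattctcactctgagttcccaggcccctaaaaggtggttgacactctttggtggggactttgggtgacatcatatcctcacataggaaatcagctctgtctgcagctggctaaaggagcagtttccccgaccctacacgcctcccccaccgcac
A match is a description of letters and was not tied to binding.

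Some genes of MHC class I presentation were higher, 3 of 13 measured in the native sums, where 7.73% of all genes measured were. In the pooled sums 5 of 13 were higher, beside 10.5% of all genes, and none was lower in either. The list's median log2 ratio was 0.24 in the native sums. Psmb9, a catalytic subunit of the immunoproteasome, had 289 CPM in native Xcr1 Clec9a cells and 65.8 CPM in native Cd209a cells, 4.39-fold higher (3.32 to 5.77). Psmb8, another immunoproteasome subunit, was 2.34-fold higher (2.02 to 2.69) and Psme1, a proteasome activator, 2.26-fold higher (1.88 to 2.70). Tap1, a peptide transporter, reached 1.98-fold (1.46 to 2.62) in the native cells and 2.76-fold in the pooled sums. In allograft cells Psmb9 had 842 CPM and Tap1 554 CPM, against 279 CPM and 286 CPM in the 28 allograft Cd209a cells.

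MHC class II genes were abundant in both kinds of cell and mostly within 2-fold, with 1 higher and 2 lower of 11 measured in native cells. Beside 7.73% higher and 14.7% lower of all genes measured there, these counts are near the background. H2-Ab1, a class II beta chain, had 13299.9 CPM in allograft cells, 13990.3 CPM in native cells and 8534 CPM in spleen cells, and 16393 CPM in native Cd209a cells. H2-Ob, a chain of the peptide-loading modulator DO, was 3.09-fold higher in native cells (2.18 to 4.29). Ciita, the class II transactivator, had 21.7 CPM in native Xcr1 Clec9a cells and 123 CPM in native Cd209a cells, 5.32-fold lower (2.72 to 14.3), while spleen Xcr1 Clec9a cells had 565 CPM. The protease Ctss, which trims the invariant chain, was 2.38-fold lower in native cells (1.99 to 2.88).

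Endosomal and uptake genes went in both directions. Of all genes measured in native cells, 7.73% were higher and 14.7% lower. Of 10 cross-presentation genes measured in native cells, 4 were higher (Wdfy4, Ppt1, Cd36 and Rab7b) and Cybb, the NADPH oxidase subunit, was the 1 lower, at 55.8 CPM against 369 CPM, with 11 of its 18 UMIs in 1 cell. Of 12 uptake receptors measured other than Clec9a and Cd209a, 4 were higher and 6 lower. Beside Cd207, those higher were Havcr2 (TIM-3), 5.13-fold (3.59 to 7.29), Cd36, a scavenger receptor, 4.08-fold (3.02 to 5.46), and Clec12a, a receptor for uric acid crystals, 3.79-fold (2.66 to 5.32). Those lower included the Fc receptor genes Fcgr3, 19.6-fold (7.76 to 111), and Fcer1g, 4.27-fold (3.55 to 5.22), and the mannose receptor Mrc1, 4.33-fold (2.89 to 7.11). Of 22 cathepsin and lysosome genes 2 were higher, near the share over all genes, and 11 lower in native cells. Cst3, the cathepsin inhibitor cystatin C, was one of the higher genes, with 33082 CPM in allograft cells, 27171 CPM in native cells and 15749 CPM in spleen cells, against 8306 CPM in native Cd209a cells. Lamp1, a lysosomal membrane protein, was 4.30-fold lower in native cells (3.02 to 6.57).

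Chemokine genes were the list with the lowest medians among those with 5 or more genes measured. Of 12 measured in the native sums 11 were lower and none higher, with a median of -3.16. Of 13 in the pooled sums 11 were lower, with a median of -3.66. The shares lower over all genes measured were 14.7% in the native sums and 13.6% in the pooled sums. Cxcl2, a neutrophil attractant, had 65.2 CPM in native Xcr1 Clec9a cells and 1458 CPM in native Cd209a cells, 21.9-fold lower (14.6 to 36.2). Ccl9 was 17.2-fold lower (11.6 to 28.1) and Ccl4 9.01-fold lower (6.52 to 13.2). Ccl5, which attracts T cells, had 12.4 CPM against 521 CPM, 37.3-fold lower (16.3 to 154). The measured gene not past 2-fold in native cells was Cxcl16, the ligand of CXCR6, with 313 CPM against 353 CPM. Cxcl9, a chemokine induced by interferon-gamma, was carried by few cells, with 42 UMIs in 4 allograft cells, 6 in 3 native cells and 30 in 5 spleen cells, and 1 allograft cell gave 25 of the 42.

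**Figure D5:**
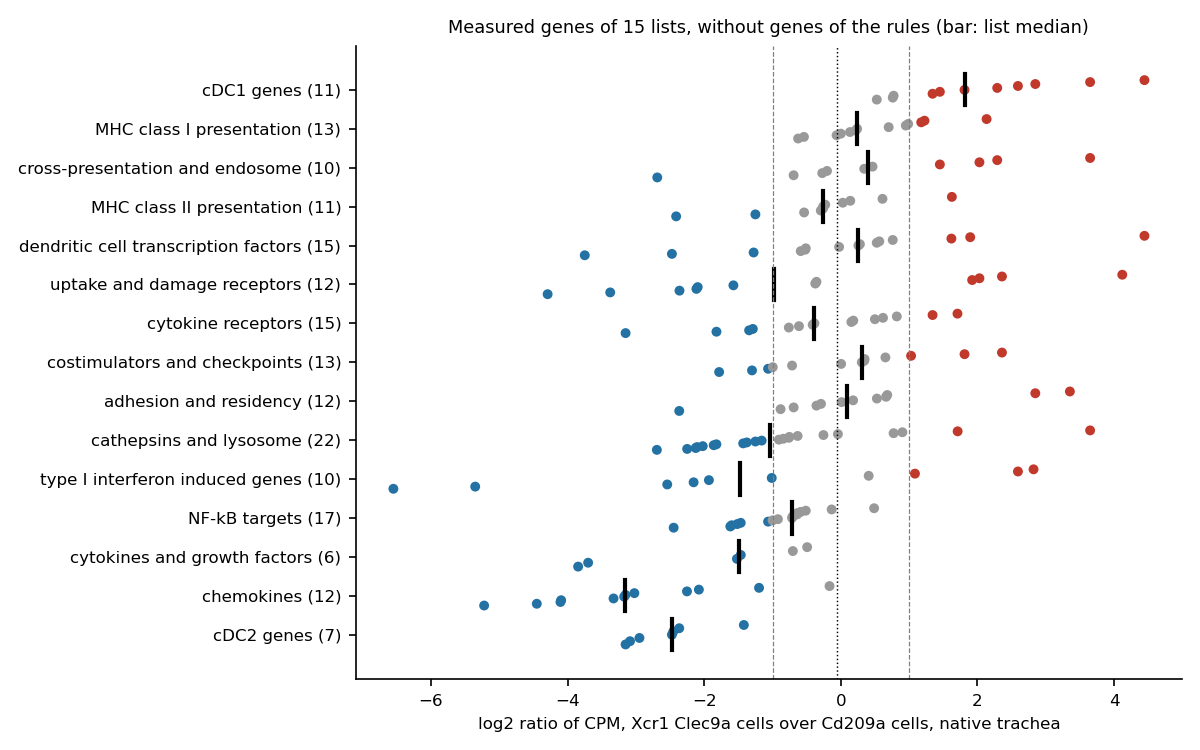
Log2 ratio of CPM in Xcr1 Clec9a cells over Cd209a cells of the native trachea for each measured gene of 15 lists (points), leaving out genes the rules used; black bars are list medians, dashed lines mark 2-fold and the dotted line the median of all measured genes. Chemokines have 11 of 12 genes below the 2-fold line, and type 1 dendritic cell genes (cDC1) 8 of 11 above it.

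Genes of cytokines and of inflammatory signalling were lower in part. Of 6 cytokine genes measured in native cells 4 were lower, among them Il1rn, the interleukin-1 receptor antagonist, 14.4-fold (7.10 to 42.6). Il1b had 237 CPM in allograft cells, 1254 CPM in native cells and 160.0 CPM in spleen cells, and native Cd209a cells had 2042 CPM, a difference of less than 2-fold in the native sums, where 1 cell gave 196 of 404 UMIs. Of 17 NF-kB target genes measured, 6 were lower in the native sums and 12 in the pooled sums, and none was higher. Over all genes measured, 14.7% were lower in the native sums and 13.6% in the pooled sums. Tnfaip3, an inhibitor of NF-kB signalling, was 5.45-fold lower in native cells (3.51 to 9.51). Ifngr1, a chain of the interferon-gamma receptor, was higher, at 434 CPM against 133 CPM in native cells, 3.27-fold (2.64 to 4.02).

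The genes named for the lowest ratios included interferon-induced genes and secreted proteins. Retnla, a resistin-like protein of type 2 inflammation, had 24.8 CPM in native Xcr1 Clec9a cells and 1928 CPM in native Cd209a cells, 73.1-fold lower (39.4 to 180.1). Fn1 (fibronectin) was 68.9-fold lower (23.8 to 711). Areg (amphiregulin, a growth factor) had no UMI in any of the 58 cells, which allows a share of cells with a UMI of up to 5.17%, and was at least 8.01-fold lower in native cells. Edn1 (endothelin), Cxcl3 and Rgl1, a Ral exchange factor, had 0 UMIs in native Xcr1 Clec9a cells and were at least 12.2-fold, 11.7-fold and 8.40-fold lower. Clec4a1, a C-type lectin, was at least 5.86-fold lower and Lcn2 (lipocalin) at least 7.29-fold lower, although 1 native Cd209a cell gave 127 of the 132 Lcn2 UMIs. Neutrophil genes, which Lcn2 accompanies, had 2314 UMIs in native Cd209a cells, 2132 of them in 1 cell, and their part in the Lcn2 ratio was not tested. Without its top cell the native log2 ratio of Lcn2 was -0.87, short of 2-fold. Hmox1 (heme oxygenase) had 9.31 CPM in native Xcr1 Clec9a cells and 424 CPM in native Cd209a cells, 39.1-fold lower (15.5 to 221). In the allograft Hmox1 had 301 CPM in Xcr1 Clec9a cells, in 10 of 14, and 248 CPM in Cd209a cells, so the pooled ratio was 3.49-fold lower (2.81 to 4.43), and without the native library the pooled log2 ratio was -0.14.

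Among 10 type I interferon-induced genes measured in native cells, 6 were lower and 3 higher. In the pooled sums 6 of 9 were lower and 1 was higher. Over all genes measured, 14.7% were lower and 7.73% higher in native cells, and 13.6% and 10.5% in the pooled sums. Ifit1, an interferon-induced RNA-binding protein, had 0 UMIs in native Xcr1 Clec9a cells and 282 UMIs in 41 of 190 native Cd209a cells, at least 15.6-fold lower. Rsad2 (viperin), an antiviral enzyme, had 1 UMI in native Xcr1 Clec9a cells and 369 UMIs in 30 native Cd209a cells, 40.8-fold lower (10.9 to 2423). Single Cd209a cells gave 82 of the Ifit1 UMIs and 67 of the Rsad2 UMIs. Irf7 went the other way in native cells, with 62.1 CPM in 5 Xcr1 Clec9a cells against 8.74 CPM in Cd209a cells, 7.07-fold higher (3.53 to 14.4), although 1 cell gave 9 of its 20 UMIs. In the allograft Irf7 had 11.9 CPM in Xcr1 Clec9a cells and 78.3 CPM in Cd209a cells. Of the 12 lower named genes 9 had a promoter window, and the interferon response pattern was found for 3 of them, Ifit1, Edn1 and Rsad2, and for 3.99% of all genes. The ETS-IRF pattern was found for 1 of the 9, Clec4a1, and for 3.16% of all genes. The 2 interferon-induced ones are printed with their matches in capitals, Ifit1 from the plus strand at chr19:34640639-34640938 and Rsad2 from the minus strand at chr12:26456403-26456702, where a TGANTCA match also stands in capitals.
Ifit1: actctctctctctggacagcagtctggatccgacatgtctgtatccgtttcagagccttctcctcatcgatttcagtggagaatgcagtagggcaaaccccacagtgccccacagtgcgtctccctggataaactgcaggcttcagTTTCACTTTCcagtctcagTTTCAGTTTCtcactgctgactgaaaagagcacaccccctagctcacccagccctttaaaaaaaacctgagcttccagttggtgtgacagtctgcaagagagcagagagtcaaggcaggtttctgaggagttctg
Rsad2: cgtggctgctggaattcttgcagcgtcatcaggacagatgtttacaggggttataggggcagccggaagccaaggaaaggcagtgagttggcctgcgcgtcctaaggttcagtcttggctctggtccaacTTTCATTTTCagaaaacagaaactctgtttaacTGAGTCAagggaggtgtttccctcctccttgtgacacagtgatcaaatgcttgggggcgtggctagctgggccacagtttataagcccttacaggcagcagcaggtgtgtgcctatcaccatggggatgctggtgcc
All 9 windows were searched as above, and nothing on binding was measured.

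Cell cycle and maturation transcripts were sparse. Mki67 or Top2a was detected in 20.7% of the 58 cells as sequenced and in 2 of 57 thinned cells (3.51%, 0.428% to 12.1%), against 7.93% of Cd209a cells and 5.79% of lymphocytes after thinning. At 3000 UMIs the share was 8.77% (5 of 57), against 11.7% of Cd209a cells and 8.97% of lymphocytes. As sequenced, 25.6% of Cd209a cells and 11.8% of lymphocytes had such a UMI. The order against lymphocytes thus changed with depth. A single spleen cell held 30 UMIs of each gene. Ccr7, which guides dendritic cells to lymph nodes and whose level the rule capped, was detected in 13.8% of the cells as sequenced and 5.26% after thinning. Under the same cap it was detected in 16.7% of Cd209a cells as sequenced and 3.52% after thinning, and in 26.5% and 11.8% of lymphocytes. Hspa1a, a heat shock gene, had 7.91 CPM in allograft cells, 6.21 CPM in native cells and 515 CPM in spleen cells, and 497 CPM in spleen Cd209a cells.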

How the data were processed

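The authors deposited 1 matrix of UMI counts per source, made from droplet libraries with Cell Ranger 3.1.0 on mm10, per the submitters' processing notes, with no filter or doublet step given in the sources used here. The 3 matrices hold 31053 genes. Members and gene lists (34) were chosen with earlier results of these data known. Cells were filtered and gated as in the report, and no doublet caller was run; cells with genes of another lineage were counted instead. UMIs were summed per set, with Poisson, Clopper-Pearson and conditional binomial intervals (SciPy 1.17.1, NumPy 2.4.6, pandas 2.3.3, Python 3.11.15), and cells were thinned without replacement. The comparisons of allograft with native and of native with spleen cells were not made, since 20 cells per library were required. Lymphocytes were cells with 3 or more UMIs of T or B cell genes. They had fewer than 2 UMIs of Xcr1 and Clec9a together, fewer than 2 of Cd209a, and met the same C1q and Ccr7 group limits. The named genes were the 12 highest and 12 lowest native log2 ratios among genes past 2-fold in both sums and without their top cell in the pooled sums, leaving out gate, mitochondrial, ribosomal, immunoglobulin, T cell receptor and unnamed genes, plus up to 6 genes per list and those whose role is given. The code was tested on simulated data.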

Additional observations from a re-analysis of the deposited data

How the results depend on the processing

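With 1 library per source no replicate could be left out. No paired analysis was possible because each source has 1 pooled library and no result comes from a test. Over 19 settings the 48 named ratios stayed within their 95% counting interval in 739 of 792 values. The reversed value was that of Serpinb6b in native cells, -0.87 without its top cell. Part of this count was fixed in advance, so it does not measure stability. The minimum of UMIs does not enter a ratio, and native ratios and list medians cannot change without the allograft or spleen library. No native Xcr1 Clec9a cell was above 2 times their median UMIs, so leaving out such cells changed no native value. The genes were also picked to stay past 2-fold in the pooled sums without their top cell. The 56 list medians moved by less than 1 on the log2 scale in 884 of 921 values. Here the lists kept the genes the rules used, unlike the medians given above. With these genes the type 1 list had medians of 3.25 in the pooled sums and 2.29 in the native sums. Without the native library the pooled log2 ratio of Id1 was 0.61 and that of Hmox1 -0.14, both short of 2-fold. Shares of cells moved under stricter gates. A gate of 3 UMIs gave 0.265% in the native trachea. Requiring both genes gave 0.361% there and 0.175% in spleen. Allowing no C1q UMI gave 0.154% in the allograft and 0.385% in the native trachea. Removing cells with another lineage's UMIs gave 0.313% in the native trachea and 0.175% in spleen, and a cell cycle share of 0%. Without thinning, Itgae, Cd8a and cell cycle shares were 44.8%, 24.1% and 20.7%. Higher genes numbered 499 in the pooled sums with totals free of mitochondrial and ribosomal genes, 48 (pooled) and 15 (native) with thinned cells, 67 in native cells with a minimum of 50 UMIs, and 118 in native cells without each gene's top cell. The native comparison could not be made under the gates of 3 UMIs, both genes or no C1q UMI, or without cells of another lineage, which left 11 to 16 native cells. The leaving out of cells with Siglech or Cd209a UMIs was chosen after seeing the data.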

Other observations

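The ligand of XCR1 was measured in the same libraries. Xcl1 had 37.6 CPM over all allograft cells, 0.940 CPM over all native cells and 17.2 CPM over all spleen cells. In cells with natural killer genes it had 817 CPM in the allograft (63 cells) and 548 CPM in spleen (88 cells), and the native trachea held 2 such cells. In cells with T cell genes Xcl1 had 67.9 CPM in the allograft (378 cells, 13.8% with a UMI), 13.0 CPM in the native trachea (225 cells, 4%) and 48.3 CPM in spleen (1133 cells, 7.50%). Flt3l, the ligand of FLT3, had 8.46 CPM, 8.52 CPM and 17.9 CPM over all allograft, native and spleen cells. The sums over all cells also depend on how many lymphoid cells a library holds. Xist was detected in 14 of 14 allograft, 25 of 25 native and 16 of 19 spleen Xcr1 Clec9a cells, and the Y-linked genes Ddx3y, Eif2s3y, Kdm5d and Uty had 0 UMIs in all of them.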
